A study of Mus musculus with 8 samples.

Results

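Mogat1, Mogat2, Dgat1, Dgat2, Gpam, Agpat2, Lpin1, Pck1, Gpd1 and Pnpla3 are 10 genes of triglyceride synthesis, 10 of the 19310 genes tested on these arrays. Each was taken from the array row that the platform annotation ties to that symbol alone, and each had 1 such row, so the rule of taking the brightest row by its mean over the 8 arrays had nothing to choose. The genes, and the pairing of Mogat1 with Mogat2, were chosen by their place in the pathway with the KO against WT log2 fold changes on these same 8 arrays already known. The comparison of that pair with each other is therefore a description with no test. The p-values below come from a fit over all rows, read against the share of all rows called.

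RNA came from epididymal white adipose tissue, the visceral fat pad beside the epididymis, of male C57BL/6 mice 12 to 15 weeks old. There were 4 arrays of samples labelled Rev-erb alpha KO and 4 of samples labelled WT. All mice ate a standard diet under 12 h of light and 12 h of darkness, and tissue was taken 10 h after lights on (Zeitgeber time 10). Rev-erb alpha, encoded by Nr1d1, is a nuclear receptor that represses transcription in the circadian clock. The deleted allele and the tissues that lack it are not given in the sources used here, nor whether every sample is its own animal. What the p-values weigh is thus the scatter of these 8 samples, which may be technical.

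The row of the targeted gene Nr1d1 read 9.56, 9.28, 8.90 and 8.80 in the KO-labelled arrays, against 9.47, 9.11, 9.18 and 9.83 in the WT arrays, so the groups overlapped (log2 fold change −0.26, limma adjusted p = 0.479). The part of the transcript that this row reads is not given, so it does not check the labels, and the samples are called KO-labelled throughout. Mature white adipocyte markers, of which 11 of 12 fixed genes were measured, averaged 12.08 to 12.12 log2 in the KO-labelled arrays and 12.03 to 12.16 in the WT arrays, against array medians of 5.90 to 5.95. Of these 11 markers, Lep passed the test and the other 10 did not.

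Fat cells build triglyceride by adding acyl chains to a glycerol backbone. In the glycerol 3-phosphate route, Gpam and its relatives add the chain that starts the pathway, Agpat enzymes add the next, lipins remove the phosphate to give diacylglycerol, and Dgat1 or Dgat2 adds the last chain. The monoacylglycerol route reaches diacylglycerol by a shortcut through Mogat1 or Mogat2. It is best known from the small intestine, where Mogat2 rebuilds dietary fat. Pck1 and Gpd1 supply the backbone, and Pnpla3 encodes a lipid droplet protein with reported hydrolase and acyltransferase activity.

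Of the 10 genes, Mogat2 rose and Mogat1, Gpam and Dgat1 fell in KO-labelled fat (limma, adjusted p under 0.05). The log2 fold changes of Dgat2, Agpat2, Lpin1, Pck1, Gpd1 and Pnpla3 did not pass. Over all rows, 7.40% were called, 3.81% higher and 3.59% lower. The median log2 fold change was 0.03 over the 10 genes and −0.01 over all rows. The median of the 10 hides opposite movements, from −1.07 for Mogat1 to 1.66 for Mogat2. Because the genes were proposed with this contrast known, their share of calls is not evidence about the pathway.

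**Figure D1:**
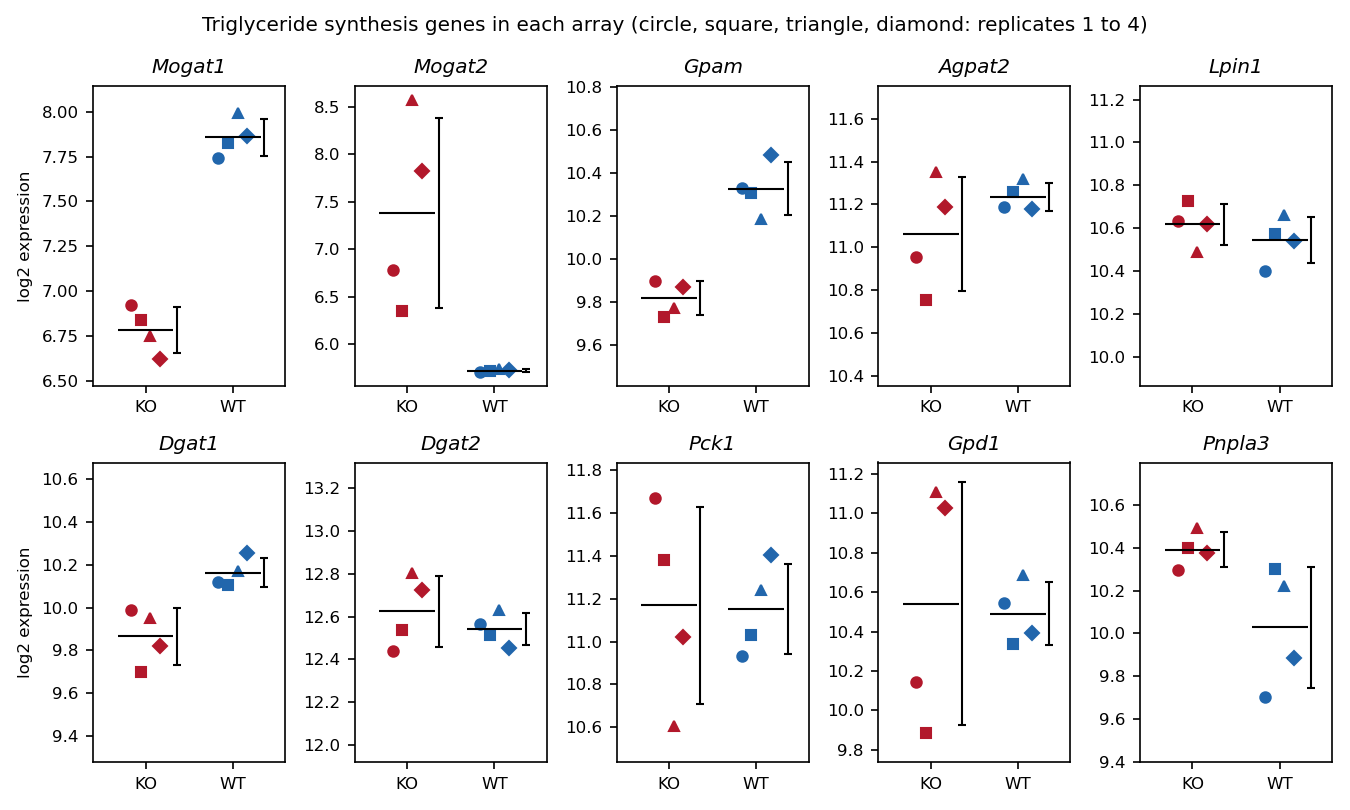
Log2 expression of the 10 genes in each array, with KO-labelled arrays in red at the left and WT arrays in blue at the right of each panel; marker shapes are replicates 1 to 4, lines are group means and bars are SD (n = 4). Each panel has its own scale, which does not start at 0. Mogat1 and Gpam parted cleanly, Mogat2 rose unevenly above 4 nearly equal WT arrays, and Gpd1 and Pck1 spread widely among KO-labelled arrays.

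Rev-erb receptors bind DNA at sites built around the hexamer AGGTCA, commonly after an A/T-rich stretch. Of the 10 genes, 6 had an entry among the RefSeq promoters (GRCm38.p6), with 7 start sites: Agpat2, Gpam, Lpin1, Mogat1, Pck1 and Pnpla3. The promoters of Mogat2, Dgat1, Dgat2 and Gpd1 were not analysed here. The 250 bases before the start are shown for Mogat1 and for both starts of Gpam, whose RNA fell, and for Lpin1, which holds a match and whose RNA did not pass the test. Capitals mark AGGTCA, searched on both strands.
Mogat1, chr1:78510810-78511059 (plus strand): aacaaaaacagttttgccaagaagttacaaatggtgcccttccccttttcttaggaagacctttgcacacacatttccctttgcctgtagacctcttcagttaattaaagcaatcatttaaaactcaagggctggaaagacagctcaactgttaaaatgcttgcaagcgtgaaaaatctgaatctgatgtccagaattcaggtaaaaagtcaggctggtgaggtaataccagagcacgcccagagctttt
Gpam, downstream start, chr19:55099478-55099727 (minus strand): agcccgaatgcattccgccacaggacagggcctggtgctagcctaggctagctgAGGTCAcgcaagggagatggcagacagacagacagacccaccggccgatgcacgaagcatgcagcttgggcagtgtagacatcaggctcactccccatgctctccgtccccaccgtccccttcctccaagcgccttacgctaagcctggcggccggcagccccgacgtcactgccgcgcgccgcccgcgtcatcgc
Gpam, upstream start, chr19:55127239-55127488 (minus strand): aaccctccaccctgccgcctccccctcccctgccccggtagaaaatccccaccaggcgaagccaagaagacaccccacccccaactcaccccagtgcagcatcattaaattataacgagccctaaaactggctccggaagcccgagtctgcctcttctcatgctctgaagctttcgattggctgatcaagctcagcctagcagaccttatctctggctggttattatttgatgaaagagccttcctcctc
Lpin1, chr12:16610967-16611216 (minus strand): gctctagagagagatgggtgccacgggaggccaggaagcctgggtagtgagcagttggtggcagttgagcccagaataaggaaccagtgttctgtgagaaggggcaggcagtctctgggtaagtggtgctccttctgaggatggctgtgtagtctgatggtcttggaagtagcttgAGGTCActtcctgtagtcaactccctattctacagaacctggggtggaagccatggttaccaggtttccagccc
The match in Gpam begins 196 bases before one start, and the match in Lpin1 begins 74 bases before its start. Those were 2 of the 7 starts, and 4607 of all 32851 promoter entries of this length (14.0%) hold the hexamer. Mogat1, with the lowest adjusted p of the 10 genes, holds none in these 250 bases. A match is a description of letters and not a binding site.

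Mogat1 encodes a monoacylglycerol acyltransferase described in mouse stomach, kidney and fat. Its row (10347741) read 6.92, 6.84, 6.75 and 6.62 log2 in the KO-labelled arrays, against 7.74, 7.83, 7.99 and 7.86 in the WT arrays. The highest KO-labelled array lay 0.82 log2 below the lowest WT array. In 8.16% of all rows the KO-labelled arrays lay wholly below, by a gap of any size. The means were 6.78 ± 0.13 in KO-labelled fat and 7.86 ± 0.10 in WT fat (SD, n = 4 each). The log2 fold change was −1.07 (SE 0.077, 95% interval −1.24 to −0.90, limma adjusted p = 7.32e-05), a level 2.10-fold lower. All 16 alternative settings kept this call, with log2 fold changes of −1.12 to −1.02.

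Mogat2 encodes the enzyme of the same reaction that dominates in the intestine. Its row (10565786) read 6.78, 6.36, 8.57 and 7.82 log2 in the KO-labelled arrays, against 5.71, 5.72, 5.74 and 5.73 in the WT arrays. Every KO-labelled array lay above every WT array, by at least 0.62 log2, but the size of the rise ran from 0.63 log2 in array 2 to 2.85 log2 in array 3. In 7.18% of all rows the KO-labelled arrays lay wholly above, by a gap of any size. The means were 7.38 ± 1.00 in KO-labelled fat and 5.73 ± 0.013 in WT fat (SD, n = 4 each). The log2 fold change was 1.66 (SE 0.38, 95% interval 0.81 to 2.51, limma adjusted p = 0.0271), a level 3.15-fold higher. The call was lost with trend and robust eBayes (adjusted p = 0.0796) and without KO-labelled array 4 or any single WT array (0.0563 to 0.0818), while the log2 fold change stayed between 1.26 and 2.00 over these and the other fits with an array left out.

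The spread of Mogat2 was unlike that of most rows. Only 6 of the 20748 rows had a greater SD among KO-labelled arrays, 94 had a smaller SD among WT arrays, and 2 had a greater ratio of the first SD to the second. The limma fit assumes equal variance in both groups and draws each row's variance towards that of the other rows. For a row as spread as Mogat2, that pull lowers the SE. With SDs this unequal, the fit also counts more degrees of freedom than the KO-labelled arrays alone would give. The adjusted p given for Mogat2 is therefore likely too low and the interval too narrow. A fit with a separate variance for each group was not run. The 4 WT values lie just below the array medians and carry no detection call, so whether WT fat held measurable Mogat2 RNA cannot be read from them.

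Both genes of the monoacylglycerol step thus changed, in opposite directions, the difference for which they were paired. Measured from each gene's own WT mean, the 4 KO-labelled arrays shifted by −0.93, −1.02, −1.11 and −1.23 log2 for Mogat1 and by 1.06, 0.63, 2.85 and 2.10 log2 for Mogat2. The fall of Mogat1 was of similar size in the 4 arrays, and the rise of Mogat2 was not. The difference between the 2 changes was 2.73 log2, and 1.99, 1.65, 3.95 and 3.33 log2 in KO-labelled arrays 1 to 4. These are differences of changes, since array rows of different genes do not share a scale of level.

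**Figure D2:**
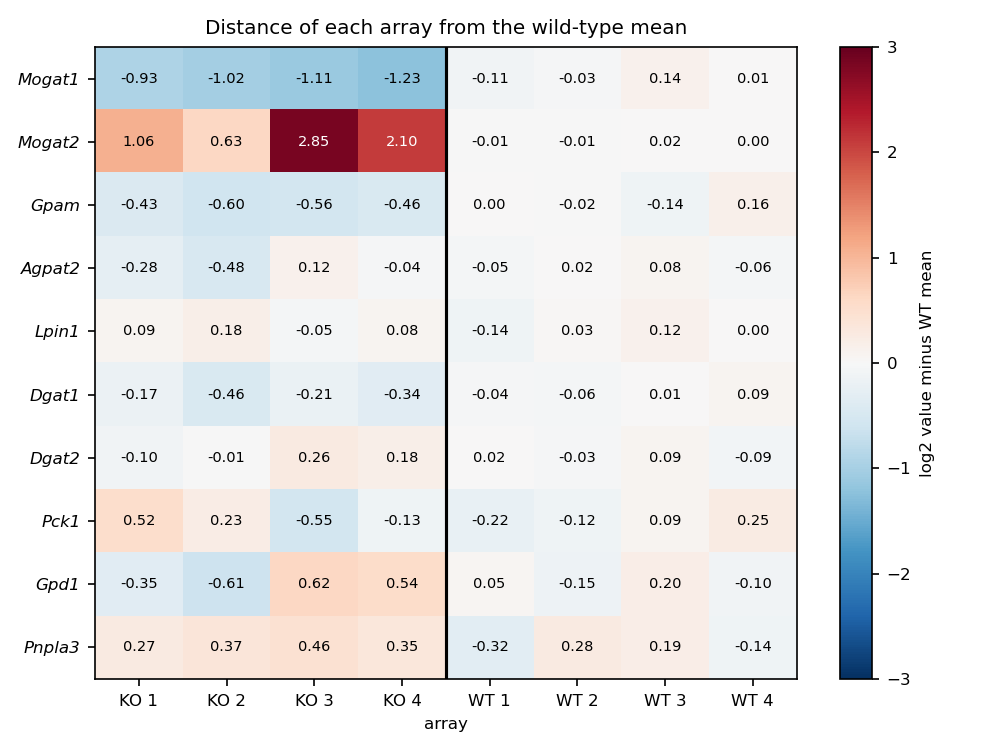
Each cell gives a gene's log2 value in 1 array minus that gene's mean over the 4 WT arrays, with KO-labelled arrays left of the line and WT arrays right of it; red is higher and blue lower. Mogat1, Gpam and Dgat1 are below 0 in all 4 KO-labelled arrays, Mogat2 and Pnpla3 are above 0 in all 4, and the other genes take both signs.

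Enterocytes are the cells best known for Mogat2, so their markers were examined beside it. None of 10 enterocyte markers passed, and their mean level was 4.54 to 4.60 log2 in the KO-labelled arrays and 4.54 to 4.66 in the WT arrays. The highest group mean of any of them was 5.68 in KO-labelled fat and 5.74 in WT fat. None of 9 hepatocyte markers passed (4.65 to 4.74 against 4.63 to 4.81), and none of 5 markers of epididymal epithelium (3.77 to 3.83 against 3.84 to 3.93). The values have no true zero, so levels this low are given without a statement on presence.

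Some markers of cells other than adipocytes passed, which is to be read beside the 3.81% of all rows called higher and 3.59% called lower. Of 8 progenitor and fibroblast markers 4 rose and 0 fell, with a list mean of 8.90 to 9.04 log2 in KO-labelled arrays and 8.47 to 8.75 in WT arrays. Those that rose were Col1a1, Col3a1, Pi16 and Mfap5. The rest had log2 fold changes from −0.14 for Dcn to 0.14 for Pdgfra and did not pass. Of 7 endothelial markers 2 rose, with a list mean of 8.61 to 8.80 in KO-labelled arrays and 8.35 to 8.60 in WT arrays. Those were Cldn5 (log2 fold change 0.99) and Pecam1 (0.20). The rest ran from −0.02 for Kdr to 0.19 for Cdh5 and did not pass. Macrophage markers had 1 lower of 8 (7.85 to 8.16 against 7.59 to 8.08). That was Cd14, and the rest of the list had log2 fold changes above 0 that did not pass. Mesothelial markers had 1 higher of 6 (8.25 to 8.48 against 8.36 to 8.52). That was Msln, and the rest of the list lay below 0 and did not pass. Skeletal muscle markers had 1 lower of 7, Actn3 (5.15 to 5.26 against 5.07 to 5.26). The rest of that list took both signs, from −0.05 for Ckm to 0.77 for Acta1, and did not pass. Brown adipocyte markers had 1 lower of 6, Ppargc1a (4.80 to 5.01 against 4.84 to 5.08). The rest of that list also took both signs, from −0.09 for Cidea to 0.21 for Dio2, and did not pass. The part of these cell types in the changes of the 10 genes was not tested. In bulk tissue, fewer cells of a type and less RNA per cell cannot be told apart.

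Gpam encodes the mitochondrial glycerol 3-phosphate acyltransferase that opens the main route. Its row (10468533) read 9.90, 9.73, 9.77 and 9.87 log2 in the KO-labelled arrays, against 10.33, 10.31, 10.19 and 10.49 in the WT arrays. The KO-labelled arrays lay wholly below the WT arrays, as in 8.16% of all rows. Its log2 fold change was −0.51 (SE 0.071, 95% interval −0.67 to −0.36, limma adjusted p = 0.00224), a level 1.43-fold lower. The call held in all 16 alternatives.

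Other genes of the same step fell as well. Gpat3 and Gpat4 encode glycerol 3-phosphate acyltransferases of the endoplasmic reticulum. Gpat3 read 7.86, 7.49, 8.45 and 8.05 log2 in the KO-labelled arrays, against 8.81, 9.08, 9.18 and 9.02 in the WT arrays (log2 fold change −1.06, SE 0.17, limma adjusted p = 0.00487). Gpat4 read 8.17, 8.20, 7.95 and 7.83 in the KO-labelled arrays, against 8.54, 8.62, 8.74 and 8.69 in the WT arrays (−0.61, SE 0.087, adjusted p = 0.00256). For both genes the KO-labelled arrays lay wholly below, as in 8.16% of all rows, and all 16 alternatives kept both calls. The fourth gene of the step, Gpat2, had a log2 fold change of −0.04 that did not pass, so 3 of 4 genes of the step were lower.

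In the middle of the route no gene passed the test. Agpat2 encodes the lysophosphatidate acyltransferase whose loss causes lipodystrophy in humans. It read 10.95, 10.75, 11.35 and 11.19 log2 in the KO-labelled arrays, against 11.19, 11.26, 11.32 and 11.18 in the WT arrays. KO-labelled arrays 1 and 2 lay below all WT arrays and array 3 above them (log2 fold change −0.17, 95% interval −0.42 to 0.08, limma adjusted p = 0.423). None of the 5 Agpat genes measured passed, with log2 fold changes of −0.17 to 0.17. For Agpat1 (0.12, limma adjusted p = 0.264) and Agpat3 (0.17, adjusted p = 0.0827) the KO-labelled arrays lay wholly above, as in 7.18% of all rows. For Agpat2, Agpat4 and Agpat5 the groups overlapped. Here and for the lipins below, a missed threshold does not show an equal level, and the steps were not tested against each other.

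Lpin1 encodes the main lipin of fat, a phosphatidate phosphatase that also acts in the nucleus. It read 10.64, 10.73, 10.49 and 10.62 log2 in the KO-labelled arrays, against 10.40, 10.57, 10.66 and 10.54 in the WT arrays. The groups overlapped, and the interval of the log2 fold change ran from −0.08 to 0.23 (limma adjusted p = 0.605). None of the 3 lipin genes passed (−0.20 to 0.24).

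Of the 2 enzymes of the last step, Dgat1 passed and Dgat2 did not. Dgat1 read 9.99, 9.70, 9.95 and 9.82 log2 in the KO-labelled arrays, against 10.12, 10.11, 10.17 and 10.26 in the WT arrays. The KO-labelled arrays lay wholly below, as in 8.16% of all rows, by a narrow gap of 0.12 log2. The log2 fold change was −0.30 (SE 0.072, 95% interval −0.46 to −0.14, limma adjusted p = 0.0325), a level 1.23-fold lower. The call was lost without KO-labelled array 2 or 4 or any single WT array (adjusted p 0.0548 to 0.0922), with log2 fold changes of −0.34 to −0.24 over the fits with an array left out.

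Dgat2, an enzyme of another protein family that performs the same reaction, read 12.44, 12.54, 12.80 and 12.72 log2 in the KO-labelled arrays, against 12.56, 12.51, 12.63 and 12.46 in the WT arrays. KO-labelled arrays 3 and 4 lay above all WT arrays and array 1 below them. Its log2 fold change was 0.08 (95% interval −0.10 to 0.27, limma adjusted p = 0.622). Dgat2 and Mogat2, which belong to one protein family, are next to each other on chromosome 7 among protein-coding genes, with a change that passed for Mogat2 and not for Dgat2. The difference between Dgat1 and Dgat2 was not tested.

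**Figure D3:**
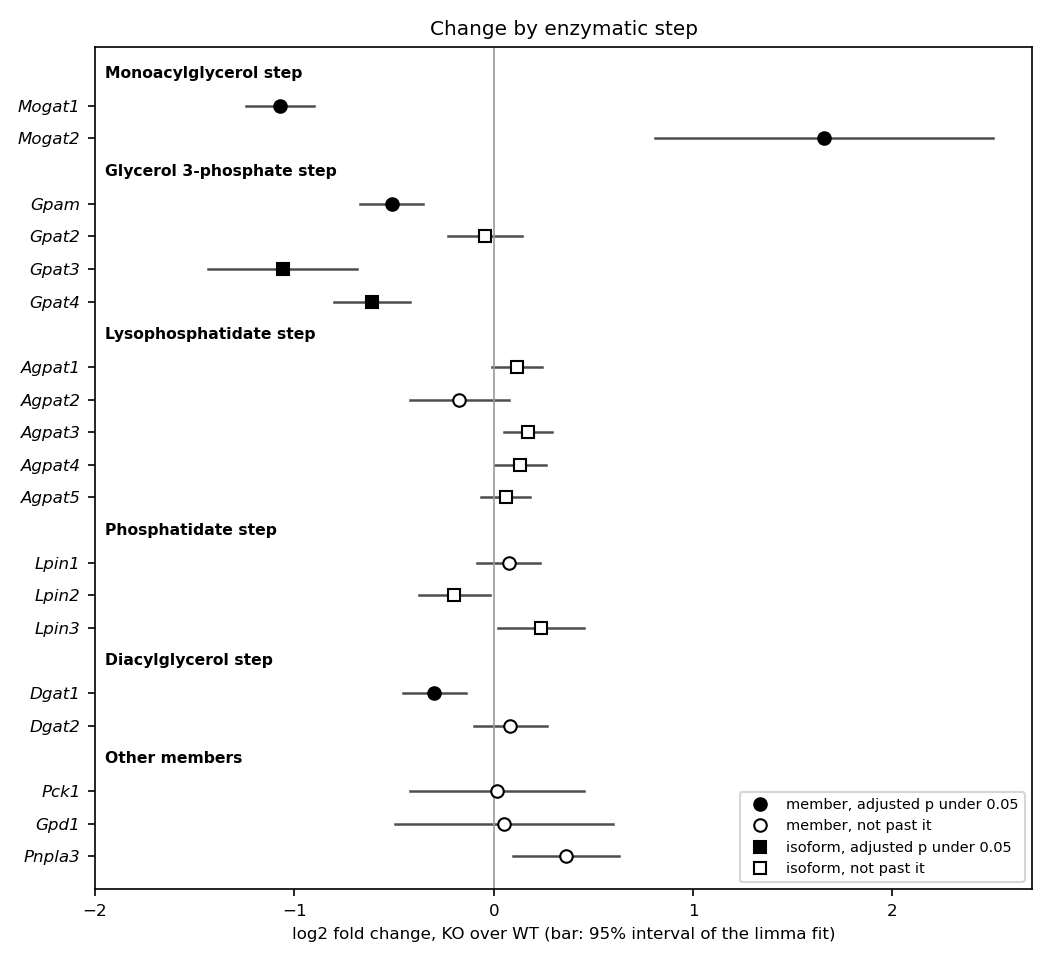
Log2 fold change of KO-labelled over WT arrays, with the 95% interval of the limma fit, for the 10 genes (circles) and other measured genes of the same steps (squares); filled symbols passed an adjusted p under 0.05. The filled symbols lie at the monoacylglycerol step (one each side of 0), at 3 of 4 genes of the glycerol 3-phosphate step and at Dgat1, and none at the lysophosphatidate and phosphatidate steps.

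Pck1 and Gpd1 supply glycerol 3-phosphate, by glyceroneogenesis and from glycolysis. Pck1 read 11.67, 11.38, 10.60 and 11.02 log2 in the KO-labelled arrays, against 10.94, 11.03, 11.24 and 11.41 in the WT arrays. The highest and the lowest of the 8 arrays were both KO-labelled. Its log2 fold change was 0.02 (95% interval −0.42 to 0.45, limma adjusted p = 0.974), and its sign turned in 5 of 16 alternatives.

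Gpd1 read 10.14, 9.89, 11.11 and 11.03 log2 in the KO-labelled arrays, against 10.55, 10.34, 10.69 and 10.39 in the WT arrays. KO-labelled arrays 1 and 2 lay below every WT array and arrays 3 and 4 above every one. The mean was 10.54 ± 0.62 in KO-labelled fat and 10.49 ± 0.16 in WT fat (SD, n = 4 each). The log2 fold change of 0.05 (95% interval −0.50 to 0.60, limma adjusted p = 0.934) averages these 2 opposite positions. For neither gene does the missed threshold show an equal level, since both intervals reach about 0.4 log2 or more in each direction.

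Pnpla3, which codes for the droplet protein named above, read 10.30, 10.40, 10.49 and 10.38 log2 in the KO-labelled arrays, against 9.70, 10.30, 10.22 and 9.89 in the WT arrays. KO-labelled array 1 lay just under WT array 2, and the other 3 KO-labelled arrays lay above all WT arrays. The log2 fold change was 0.36 (SE 0.12, 95% interval 0.10 to 0.63), and it did not pass (limma adjusted p = 0.0985). Over 16 alternatives the adjusted p ran from 0.0501, without WT array 2, to 0.222. Here the WT arrays were the more spread ones, with SD 0.28 against 0.080 in KO-labelled fat.

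Several of the 10 genes divided the KO-labelled arrays in the same way. Arrays 3 and 4 both lay above arrays 1 and 2 for Mogat2, Dgat2, Agpat2 and Gpd1, and both lay below them for Mogat1, Lpin1 and Pck1. Gpam, Dgat1 and Pnpla3 showed no such order. Over all rows, arrays 3 and 4 lay above in 25.2% and below in 20.1%, so this division is common on these arrays and is not particular to the 10 genes. The SD was greater among KO-labelled than WT arrays for 7 of the 10 genes and for 53.7% of all rows.

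The rows whose course over the 8 arrays was most like that of Mogat1 were Disp2, Fads1 and Nrg4. Likeness was the root mean square difference of log2 values after each row was centred on its own mean, which was 0.11, 0.11 and 0.12 log2 for these rows. Rows of predicted genes, told by their symbols, were left out of this ranking. Fads1, a fatty acid desaturase gene, read 8.66, 8.74, 8.62 and 8.60 log2 in the KO-labelled arrays, against 9.75, 9.65, 9.68 and 9.57 in the WT arrays. The rows most like Mogat2 were Fam20c, Asb12 and Slc5a7, at 0.39, 0.41 and 0.42 log2. This measure grows with a row's own spread, which was wider for Mogat2, so the distances of Mogat1 and Mogat2 are not comparable. Fam20c, a secretory pathway kinase gene, read 7.69, 7.58, 8.78 and 8.95 in the KO-labelled arrays, against 7.08, 7.21, 7.22 and 6.84 in the WT arrays. Like Mogat2 it was higher in KO-labelled arrays 3 and 4, which follows from choosing rows by likeness and is no separate finding.

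Around the 10 genes, 84 further genes in 6 lists were taken from textbook knowledge, with earlier results of these data known, and 79 of them were measured. Gk, Acsl1, Acsl3, Dgkg and Nr1h2 had no row tied to their symbol alone and were not measured. Of the 79 measured genes 5 rose and 13 fell, beside 3.81% of all rows higher and 3.59% lower. Those shares are the background for the count of each list below. Given how the lists were chosen, the counts describe them and are not evidence about the pathway. The list of 12 other enzymes of the same steps had 0 higher and 2 lower, Gpat3 and Gpat4, with a median log2 fold change of 0.05.

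Of 9 genes that supply glycerol or glycerol 3-phosphate, 2 rose and 2 fell (median −0.13). Aqp7, the glycerol channel of fat cells, was higher by 0.39 log2 (SE 0.067, limma adjusted p = 0.00679). Tpi1, which interconverts the triose phosphates of glycolysis, was higher by 0.49 (SE 0.13, adjusted p = 0.0455), and that call was lost without KO-labelled array 3 or 4 or any single WT array (0.0526 to 0.116), with quantile normalization and with all rows tested. The pyruvate carboxylase gene Pcx, whose product feeds glyceroneogenesis, fell by 0.47 (SE 0.076, adjusted p = 0.00519). The Gpd1 relative Gpd1l fell by 0.22 (SE 0.059, adjusted p = 0.0479), and its call was lost in all fits with an array left out other than that without WT array 2 (0.0594 to 0.119), with quantile normalization, median centring, array weights and all rows tested.

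Of 8 measured genes of acyl-CoA supply, which lack Acsl1 and Acsl3, the fatty acid transport gene Slc27a1 fell by 0.84 log2 (SE 0.17, limma adjusted p = 0.0167). None rose (median −0.05). Slc27a1 read 9.68, 9.46, 8.73 and 9.02 in the KO-labelled arrays, against 9.98, 9.98, 10.04 and 10.24 in the WT arrays. The call was lost without KO-labelled array 4 or WT array 4 (adjusted p 0.0522 to 0.0567).

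Of 15 genes that break down acylglycerols or are related to Pnpla3, 1 rose and 2 fell (median −0.12). Mgll, which cleaves monoacylglycerol, the substrate of both Mogat enzymes, was higher by 0.27 log2 (SE 0.054, limma adjusted p = 0.0128) in 4 of 4 KO-labelled arrays. It read 10.90, 10.89, 10.95 and 11.01 in the KO-labelled arrays, against 10.59, 10.64, 10.69 and 10.72 in the WT arrays. In 7.18% of all rows the KO-labelled arrays likewise lay wholly above. G0s2, an inhibitor of the triglyceride lipase encoded by Pnpla2, fell by 0.72 (SE 0.15, adjusted p = 0.0149), and the carboxylesterase gene Ces1f fell by 1.42 (SE 0.22, adjusted p = 0.00411). The other 12 genes of the list did not pass.

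Of 20 genes that lead to phospholipid or turn phosphatidate and diacylglycerol into each other, 1 rose and 2 fell (median −0.003). Selenoi, an ethanolamine phosphotransferase gene that draws on diacylglycerol, was higher by 0.41 log2 (SE 0.062, limma adjusted p = 0.00392). The diacylglycerol kinase gene Dgke fell by 0.42 (SE 0.082, adjusted p = 0.0121) and the lipid phosphate phosphatase gene Plpp2 by 0.31 (SE 0.060, adjusted p = 0.0111).

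Of 15 regulators of lipid storage genes, 1 rose and 4 fell, and the median, −0.25, was the lowest of the 6 lists. Srebf1, a driver of lipogenic genes and of Gpam, fell by 0.67 log2 (SE 0.11, limma adjusted p = 0.00524). It read 8.26, 8.14, 8.59 and 8.58 in the KO-labelled arrays, against 8.93, 9.05, 9.22 and 9.04 in the WT arrays. The coactivator gene Ppargc1a fell by 0.56 (SE 0.10, adjusted p = 0.00891), the receptor gene Ppara by 0.39 (SE 0.064, adjusted p = 0.00563) and the adipogenic factor gene Cebpa by 0.37 (SE 0.058, adjusted p = 0.00454). Insig2, which retains SREBP precursors in the endoplasmic reticulum, was higher by 0.28 (SE 0.069, adjusted p = 0.0348), and its call held only without WT array 4 among the fits with an array left out (0.0700 to 0.0905 in the others).

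**Figure D4:**
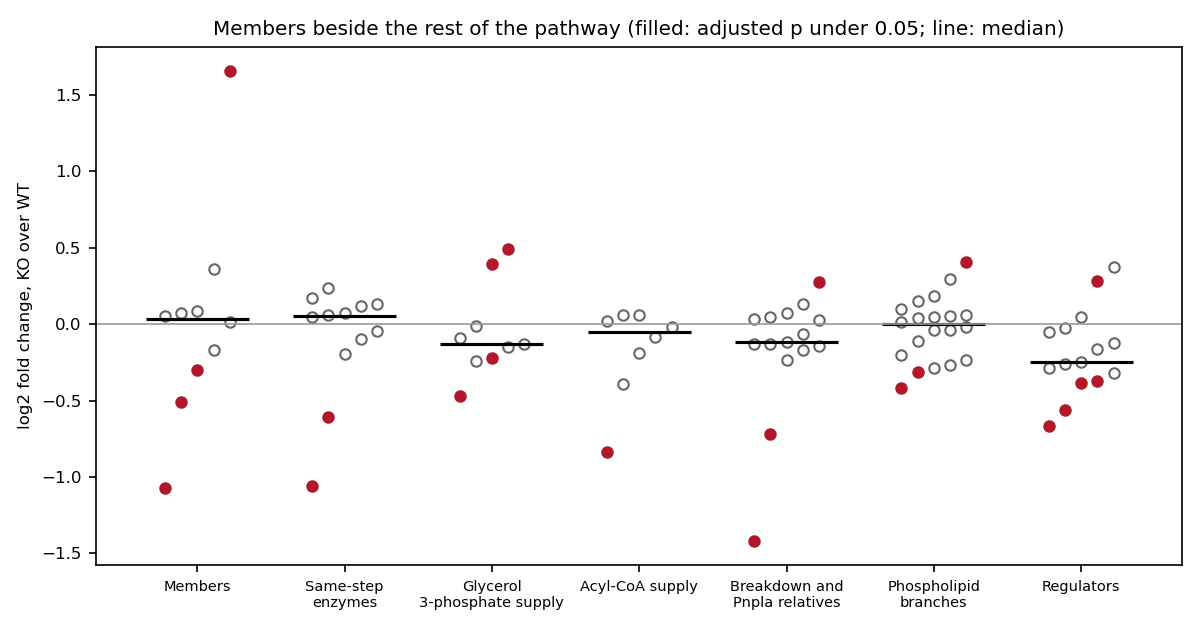
Log2 fold change of KO-labelled over WT arrays for the 10 genes (leftmost) and the measured genes of the 6 pathway lists; filled points passed an adjusted p under 0.05 and horizontal lines are list medians. Mogat2, at 1.66, is the only filled point above 1, and Mogat1, Gpat3 and Ces1f are the filled points below −1.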

How the data were processed

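RNA of epididymal fat was measured on whole-transcript Affymetrix mouse arrays, 4 KO-labelled and 4 WT. Deposited by the authors was a table of log2 values, 1 per array and row; affy is the tool named in the submitters' processing notes; background correction, normalization and filters are not given in the sources used here. The log2 scale was read from the values (2.09 to 13.4). No detection calls were used, and the number of arrays limits the precision. Of 23346 rows, the 20748 with exactly 1 symbol in the platform annotation were tested (1183 had several, 1415 none). No pair of arrays was identical.

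The difference of KO minus WT was estimated by limma 3.58.1 (R 4.3.3; lmFit and default eBayes, no other term), two-sided, with Benjamini-Hochberg adjustment over all tested rows and a call at an adjusted p under 0.05. The fit was tested on simulated data. Of pathway genes, those that passed were named. The members, lists and alternatives were chosen with earlier results of these data known. Alternatives were quantile normalization, median centring, removal of the dimmest 33.3% of rows, inclusion of all rows, trend and robust eBayes, array weights, a block for replicate number, omission of each array, and the mean of a gene's rows. The same-numbered arrays' deviations correlated at −0.07 to 0.13, so the numbers were not taken to pair samples.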

Additional observations from a re-analysis of the deposited data

Results flagged for a closer look

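In KO-labelled array 2, Gpd1l read 7.187 log2, while the other 3 KO-labelled arrays lay between 7.099 and 7.114. The gap to the nearest array was 0.838 of the group's range, above Dixon's 95% critical value for 4 samples. It was 1 of 70 groups of arrays examined, and chance alone would mark about 1 in 20.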

How the results depend on the processing

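Over 16 alternatives each, the 10 genes kept direction and side of the threshold in 139 of 160 cases. Not all of these cases could move a log2 fold change. Removal of dim rows, inclusion of all rows, trend and robust eBayes, the replicate block and the mean of rows left those of the 10 genes as they were. Each of the 10 genes had 1 row, so the mean of rows also kept their array values. Calls were lost in 13 cases, those of Mogat2 and Dgat1. Beside the fits without an array, Mogat2 lost its call with trend and robust eBayes (adjusted p = 0.0796) and Dgat1 with the replicate block (adjusted p = 0.0567). The sign of Pck1 turned with quantile normalization (−0.012) and in fits without an array (−0.15 to 0.20), and that of Gpd1 in fits without an array (−0.14 to 0.27). With each array left out in turn, the fits called 2 to 4 of the 10 genes, 913 to 1418 rows (1536 with all arrays) and 14 to 17 of the 79 measured pathway genes (18 with all arrays), and the Mogat2 change exceeded that of Mogat1 by 2.32 to 3.09 log2. The lowest row count came without KO-labelled array 4, and the counts without WT array 3 (972) or 4 (1004) were also lower by over 1.5 times; such fits have fewer samples. The replicate block gave 1105 called rows, 3 of the 10 genes and 18 pathway genes, and ended the calls of Gpd1l (adjusted p = 0.114) and Insig2 (adjusted p = 0.0741). Other named genes lost calls in 37 of 383 cases and turned sign in none. The absence of detection calls limits Mogat2 most, whose WT values are just below the array medians.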

Other observations

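Among protein-coding genes of chromosome 7, Mogat2 has Dgat2 and then Uvrag on one side and Map6 and Serpinh1 on the other, near each other in the GRCm38.p6 annotation. These neighbours were chosen after the values of Mogat2 were seen. Uvrag, an autophagy gene, read 7.89, 7.90, 8.11 and 8.01 log2 in the KO-labelled arrays, against 7.63, 7.68, 7.48 and 7.69 in the WT arrays, and rose by 0.36 log2 (SE 0.070, limma adjusted p = 0.0127). Map6, a microtubule-binding protein gene, read 6.48, 6.34, 6.70 and 6.72 in the KO-labelled arrays, against 6.24, 5.98, 6.16 and 6.11 in the WT arrays, and rose by 0.44 (SE 0.092, adjusted p = 0.0174). Serpinh1, a collagen chaperone gene, read 8.33, 8.25, 8.83 and 8.72 in the KO-labelled arrays, against 8.28, 8.28, 8.37 and 8.15 in the WT arrays, and its log2 fold change of 0.26 did not pass (adjusted p = 0.248). Dgat2, between Mogat2 and Uvrag, did not pass either. In KO-labelled arrays 3 and 4, all 5 genes read higher than in arrays 1 and 2, an order that 25.2% of all rows showed. The calls of Uvrag and Map6 stand beside 3.81% of all rows called higher. Whether the neighbours changed together was not tested.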
